A study of Mus musculus with 36 samples.

Results

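Nephron progenitors made from mouse embryonic stem cells (mESC), called induced nephron progenitors (iNP), were set against nephron progenitors (NP) taken from E12.5 mouse kidneys, called ex-fetu here. The 8 samples of this comparison, 4 iNP and 4 E12.5 NP, were chosen by their titles from the 36 RNA sequencing samples of the series. The iNP cells came from the E14 mESC line, with no allele or transgene given. They were grown as embryoid bodies in medium with Activin A, CHIR99021, BMP4, retinoic acid, FGF9 and Y27632 in sequence. A sample was a pool of embryoid bodies from the same differentiation. The E12.5 NP cells came from CD1 mice, with no treatment or allele given. A sample was a pool of kidneys over a whole litter, so that both sexes can be mixed in it and the stage is that of the litter. Both were sorted on high ITGA8 with low PDGFRA, after cells positive for CD31, an endothelial antigen, or for EpCAM and RET, antigens of the ureteric bud, had been gated out. Induced stromal progenitors (iSP, E14 mESC) and E12.5 stromal progenitors (SP, CD1 mice) had 4 samples each and the opposite sort, low ITGA8 with high PDGFRA. They are used to test where the difference departs from that in stroma. The 4 E11.5 NP samples, from CD1 mice, give values set side by side. The E14 line and the CD1 strain, culture and embryo, and the source of the cells all change together between the groups and cannot be told apart.

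Nephron progenitors form the cap of mesenchyme around each tip of the ureteric bud. They renew themselves under FGF and low WNT signals while *Six2*, *Osr1*, *Eya1*, *Sall1* and *Wt1* are expressed, and *Cited1* marks the least committed of them. A stronger WNT signal starts the change to epithelium, in which *Wnt4*, *Pax8*, *Fgf8* and *Lhx1* come on. Progenitors also secrete GDNF, which draws out the RET-positive ureteric bud, and the Hox11 genes pattern the tissue.

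Values are read counts per library size (CPM) scaled by edgeR normalisation factors, called normalised CPM. Reads on genes numbered between 31.1 and 43.7 M in the E12.5 NP libraries and between 27.1 and 42.3 M in the iNP libraries, and 3 reads, taken as the limit of detection, stood for at most 0.106 normalised CPM. A gene was tested where at least 4 of the 8 libraries had a value of at least 1, which left 14067 of 22761 genes. It is called when the adjusted p-value of limma, fitted on log2(normalised CPM + 1), is under 0.05. Log2 fold changes, printed with ± their standard error, are iNP minus E12.5 NP on that scale, on which changes of low genes come out too small. The values of a gene are given in the order of replicates 1 to 4, and all adjusted p-values are those of limma. A gene under 1 in every library of 1 group passed the filter through the other group alone and had to differ, so that its values and fold change are given as a description with no p-value. In bulk RNA, fewer cells of a type and less RNA per cell cannot be told apart.

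3 libraries stood apart from their groups. In E12.5 NP replicate 2 and iNP replicate 2, genes whose longest transcript exceeds 8 kb lay below the mean of the other 3 libraries of the group. Their median deviations were -0.35 and -1.02 on the log2 scale over 794 genes. Genes with transcripts under 2 kb lay above it, by 0.27 and 0.44 over 2362 genes. In the other 6 libraries the long genes deviated by between -0.11 and 0.43. E12.5 NP replicate 1 had 507 genes more than 1 log2 unit above the mean of the other 3 E12.5 NP libraries, against 43 to 68 genes in each of those, and the log2 fold change without it is given beside each printed log2 fold change that it moved by more than 0.25. No pair of libraries was alike within counting noise, the lowest chi-squared per degree of freedom being 10.5.

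Of the 14067 genes tested, 6237 (44.3%) were called, 3601 (25.6%) higher and 2636 (18.7%) lower in iNP. Groups did not overlap in 6194 genes (44.0%). Among the called genes 1644 were above a log2 fold change of 1 and 846 below -1, and the median over all genes tested was 0.04. Without E12.5 NP replicate 1, 6199 genes (44.1%) were called, 3458 (24.6%) higher and 2741 (19.5%) lower, and 5636 of the 6237 genes kept their call and direction. Without both libraries numbered 2, 8076 genes (57.4%) were called, among them 6018 of the 6237 with the same direction. The split depended on the scaling. With the deposited scaling 57.7% of the called genes were higher in iNP, against 50.3% after quantile normalisation and 69.7% after upper-quartile scaling, which moved the median of all genes by 0.14. Of 752 pseudogenes tested 223 were higher and 74 lower. Reads of near-identical copies may be shared among them, so that they are not named.

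**Figure D1:**
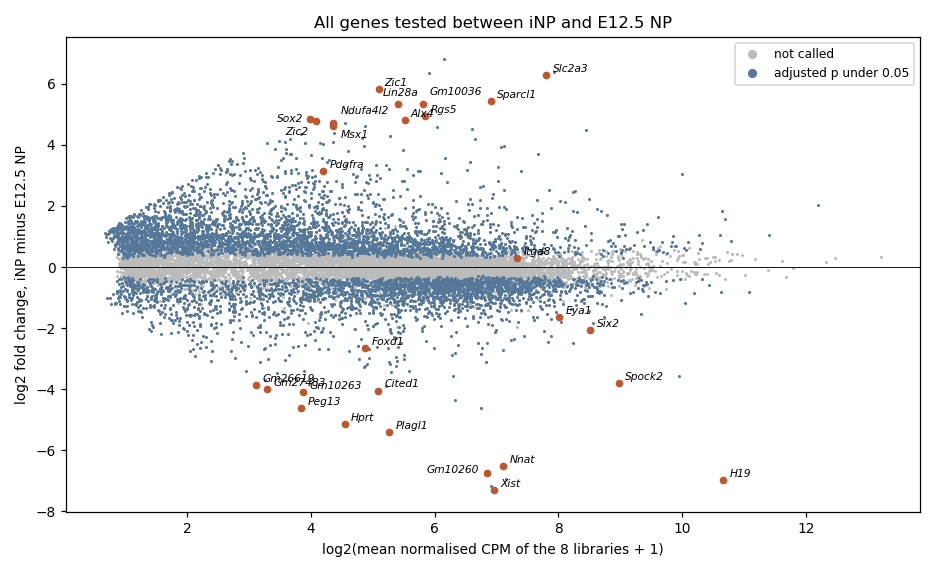
Log2 fold change between iNP and E12.5 NP against the log2 of the mean level over the 8 libraries, for the 14067 genes tested. Points in blue are the 6237 genes called, labelled points are genes named in the text, most of them among the largest changes, and *H19*, *Nnat*, *Xist* and *Gm10260* are the labelled points below -6.

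Among the largest rises in iNP, pseudogenes left out, were those of *Slc2a3*, *Zic1*, *Sparcl1* and *Lin28a*. *Slc2a3* (chromosome 6), which encodes the glucose transporter GLUT3, was at 9.11, 3.80, 3.24 and 3.99 normalised CPM in E12.5 NP and 488, 403, 423 and 449 in iNP (log2 fold change 6.28 ± 0.25, adjusted p = 1.1e-07). *Zic1*, a zinc finger transcription factor gene, overlaps *Zic4* on the other strand by 60 exonic bases and was at 0.646, 0, 0.0679 and 0.0257 in E12.5 NP and 80.2, 62.0, 63.9 and 57.8 in iNP (log2 fold change 5.84 ± 0.19). *Lin28a*, which encodes an RNA-binding protein that blocks maturation of let-7 microRNAs, was at 1.05, 1.177, 1.177 and 0.746 in E12.5 NP and 74.5, 93.5, 76.0 and 81.3 in iNP (log2 fold change 5.34 ± 0.14, adjusted p = 2.0e-08). Every iNP library was over 40 times above the highest E12.5 NP library in *Slc2a3*, *Zic1* and *Lin28a*. The SOXB1 gene *Sox2* was at 0.154, 0.0245, 0.0453 and 0 in E12.5 NP and 28.2, 36.5, 27.9 and 26.2 in iNP (log2 fold change 4.85 ± 0.14). *Zic2* was at 0.462, 0.0736, 0.158 and 0.0772 in E12.5 NP and 29.4, 32.8, 34.2 and 30.4 in iNP (log2 fold change 4.79 ± 0.14). The homeobox genes *Alx4* and *Msx1* had log2 fold changes of 4.81 and 4.62 (adjusted p = 5.3e-07 for *Alx4*), and E12.5 NP levels of at most 2.56 and 0.677 normalised CPM. The matrix gene *Sparcl1*, the RGS gene *Rgs5*, which marks pericytes, and *Ndufa4l2*, a mitochondrial gene induced by hypoxia, were higher by 5.43, 4.93 and 4.72 (adjusted p = 1.4e-06, 2.8e-06 and 3.4e-07), and by 5.78, 5.32 and 4.93 without E12.5 NP replicate 1. *Alox15*, a lipoxygenase gene, was at 0.277, 0.515, 0.294 and 0.257 in E12.5 NP and 25.4, 26.5, 25.1 and 27.7 in iNP (4.35). *Zic1*, *Sox2*, *Zic2*, *Msx1* and *Alox15* were under 1 in every E12.5 NP library. E12.5 NP replicate 1 was the highest E12.5 NP library in *Slc2a3*, *Zic1*, *Sox2*, *Zic2*, *Rgs5*, *Sparcl1* and *Ndufa4l2*, and without it their log2 fold changes were between 4.89 (*Zic2*) and 6.56 (*Slc2a3*).

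Among the genes lower in iNP stood imprinted genes, *Xist*, *Hprt* and, from the nephron progenitor list, *Cited1* and *Spock2*. *Hprt* (ENSMUSG00000025630), which encodes the purine salvage enzyme hypoxanthine phosphoribosyltransferase, was at 34.1, 59.6, 37.9 and 46.1 normalised CPM in E12.5 NP and 0.106, 0.525, 0.234 and 0.228 in iNP (log2 fold change -5.14 ± 0.19). Every iNP library was more than 60-fold below every E12.5 NP library, and the E11.5 NP libraries were at 37.1 to 54.0 normalised CPM. *Xist*, the non-coding RNA of X inactivation, was at 547, 33.5, 243 and 168 in E12.5 NP and 0.141, 0, 0.0293 and 0.0683 in iNP (log2 fold change -7.30 ± 0.66, and -6.73 without E12.5 NP replicate 1). The E12.5 NP libraries spread over more than an order of magnitude in *Xist*, with replicate 2 lowest, and the iNP libraries were at or near 0. Of the 12 genes with the largest fall, pseudogenes left out, 4 are of uncertain count. *Gm10260* (215, 288, 202 and 205 in E12.5 NP, 1.20, 1.15, 1.03 and 1.0697 in iNP libraries, log2 fold change -6.74, adjusted p = 5.9e-09) is 99.1% identical to *Rps18*, and *Gm10263* (-4.08, adjusted p = 6.1e-07) is 99.0% identical to *Rps28*. *Gm26619* (-3.87) shares 541 exonic bases with *Gm10260* on the other strand. *Gm27483* (-3.98) lies wholly within *H19* on the opposite strand. *Gm10036* (5.32, adjusted p = 5.3e-07), among the 12 with the largest rise, is 99.4% identical to *Rpl11*, and use of strand in the counting was not given in the sources used here.

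**Figure D2:**
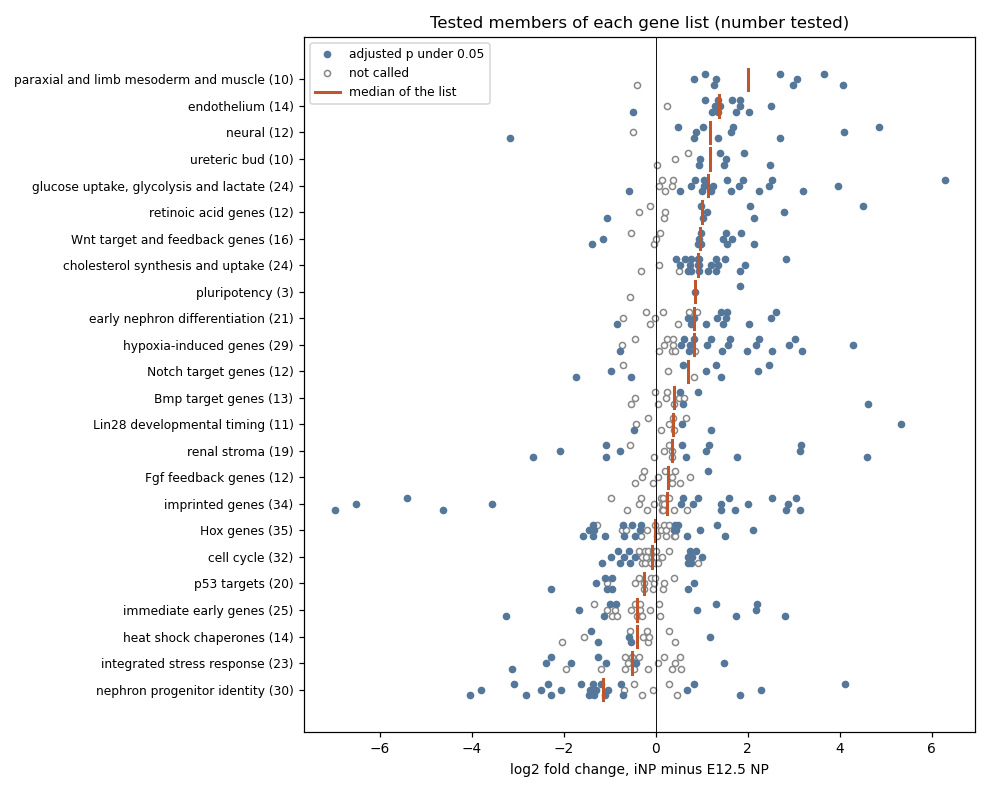
Log2 fold change of each tested member of the gene lists with 3 or more tested members, ordered by the median of the list (orange line), with the number tested in brackets. Nephron progenitor identity genes have the lowest median, -1.15, and the medians of the neural list and of the list of paraxial and limb mesoderm and muscle include 8 and 6 genes that passed the filter through iNP alone and had to be higher.

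Nephron progenitor identity genes were present in iNP at a lower level than in E12.5 NP. All 30 genes of the list had at least 3 reads in each of the 8 libraries, 19 were lower and 5 higher in iNP and 6 were not called. These are 63.3% lower and 16.7% higher, where 18.7% and 25.6% of all genes tested were, and the median log2 fold change was -1.15 against 0.04 over all genes. Their summed level was 4909.6 to 7233 normalised CPM in E12.5 NP and 2084 to 2992 in iNP libraries. *Six2*, the transcription factor that holds progenitors in self-renewal, was at 422, 771, 549.7 and 621 normalised CPM in E12.5 NP and 116, 141, 147 and 152 in iNP (log2 fold change -2.05 ± 0.18, adjusted p = 1.7e-05). The groups did not overlap, with the lowest E12.5 NP library, replicate 1, 2.77 times above the highest iNP library, and the E11.5 NP libraries were at 557 to 641. *Cited1*, which marks the least committed progenitors, was at 60.6, 76.5, 46.8 and 68.5 in E12.5 NP and 3.27, 4.26, 2.61 and 1.66 in iNP (log2 fold change -4.04 ± 0.23, adjusted p = 9.4e-07). In E11.5 NP libraries *Cited1* was at 18.4 to 42.6, so that iNP lay below both stages. *Eya1*, a co-activator that works with SIX2, was at 165, 474, 463 and 481 in E12.5 NP and 115.3, 80.3, 142 and 142 in iNP (log2 fold change -1.63 ± 0.34, adjusted p = 0.0038). E12.5 NP replicate 1 stood at about the level of the iNP libraries in *Eya1*, and without it the log2 fold change was -2.01 (adjusted p = 8.7e-05). *Spock2*, a proteoglycan gene of the cap mesenchyme, was at 716, 975, 998 and 1071 in E12.5 NP and 59.0, 62.8, 71.0 and 72.7 in iNP (log2 fold change -3.79 ± 0.15, adjusted p = 1.1e-07), the largest absolute difference in level of the list. *Meox2*, a homeobox gene, was at 40.7, 97.2, 80.4 and 79.98 in E12.5 NP and 7.60, 6.92, 8.58 and 7.15 in iNP (log2 fold change -3.08 ± 0.24, adjusted p = 7.7e-06, and -3.34 without E12.5 NP replicate 1). Both were without overlap between the groups.

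The other core regulators fell by less. In a fit over all 36 samples *Wt1* and *Gdnf* were not called (adjusted p = 0.082 and 0.14). *Osr1*, needed for the intermediate mesoderm, was at 107, 131, 98.2 and 123 in E12.5 NP and 46.1, 34.4, 47.4 and 48.5 in iNP (log2 fold change -1.36 ± 0.15, adjusted p = 7.4e-05). *Wt1*, a zinc finger gene needed for progenitor survival, was at 326, 497, 525 and 492 in E12.5 NP and 215, 185, 253 and 229 in iNP (log2 fold change -1.04 ± 0.17, adjusted p = 9.2e-04). *Pax2*, a paired box gene of the renal lineage, was at 414, 566, 756 and 728 in E12.5 NP and 210.2, 201, 303 and 281 in iNP (log2 fold change -1.29 ± 0.22, adjusted p = 9.7e-04). None of the 3 overlapped between the groups. *Sall1*, a zinc finger gene that keeps progenitors renewing, was at 340.5, 442, 520.3 and 581 in E12.5 NP and 194, 119, 266 and 269 in iNP (log2 fold change -1.19 ± 0.27, adjusted p = 0.0053). *Gdnf*, the ligand of RET, was at 86.4, 77.4, 60.4 and 95.2 in E12.5 NP and 45.5, 32.9, 50.1 and 59.9 in iNP (log2 fold change -0.76 ± 0.20, adjusted p = 0.013), where the highest iNP value lay just under the lowest E12.5 NP value. *Hoxd11* was at 159.6, 169, 172 and 173 in E12.5 NP and 65.0, 65.7, 70.9 and 63.5 in iNP (log2 fold change -1.33 ± 0.10, adjusted p = 7.3e-06), with the least spread within the groups. *Crym*, *Robo2*, *Traf1*, *Phf19* and *Uncx* were also lower, by -2.82, -2.50, -2.35, -2.27 and -1.44 on the log2 scale (adjusted p at most 0.00023).

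5 genes of the list were higher. *Fgf9*, a ligand that maintains progenitors, was at 5.29, 5.37, 4.98 and 5.197 in E12.5 NP and 18.7, 22.3, 20.2 and 23.6 in iNP (log2 fold change 1.83 ± 0.13, adjusted p = 4.1e-06). *Tfap2b* was at 1.57, 0.613, 0.0906 and 0.180 in E12.5 NP and 8.86, 4.82, 5.80 and 6.87 in iNP (log2 fold change 2.29 ± 0.27, adjusted p = 1.1e-04, and 2.55 without E12.5 NP replicate 1). *Meox1* and *Smarca2* were higher by 0.69 and 0.84 (adjusted p = 0.037 and 0.036), *Meox1* by 0.42 (adjusted p = 0.018) and the latter not called without E12.5 NP replicate 1 (adjusted p = 0.069). *Itga8*, the gene of the antigen used in the sort, was at 99.1, 146, 146 and 163 in E12.5 NP and 212, 75.5, 209.8 and 230.1 in iNP (log2 fold change 0.29, 95% interval -0.45 to 1.04, adjusted p = 0.5). iNP replicate 2, low in long transcripts, was the lowest of all 8 libraries in *Itga8*, and without both libraries numbered 2 the gene was called higher in iNP (0.70, adjusted p = 0.013). Without E12.5 NP replicate 1 the list had 20 lower and 4 higher genes and a median of -1.27.

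**Figure D3:**
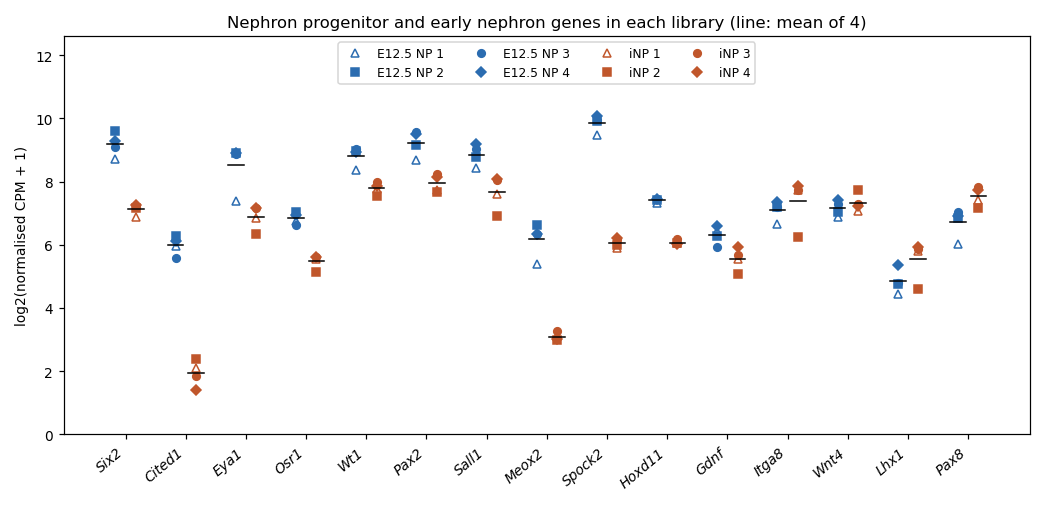
Level of 15 nephron progenitor and early nephron genes in each of the 8 libraries, as log2(normalised CPM + 1), with E12.5 NP in blue, iNP in orange, 1 symbol per replicate number and a line at the mean of each group. iNP libraries sit below all E12.5 NP libraries in the 11 genes from *Six2* to *Gdnf* and above them in *Pax8*, and the groups overlap in *Itga8*, *Wnt4* and *Lhx1*.

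Of 21 tested genes of early nephron differentiation, 12 were higher and 1 lower in iNP (57.1% and 4.76%, against 25.6% and 18.7% of all genes), with a median of 0.83. *Wnt4*, which drives the change to epithelium, did not pass the test, at 117, 129.6, 157 and 171 in E12.5 NP and 132, 214, 155 and 148 in iNP (log2 fold change 0.17, 95% interval -0.23 to 0.57, adjusted p = 0.47). *Lhx1* was at 20.9, 25.9, 27.0 and 39.9 in E12.5 NP and 55.4, 23.1, 57.6 and 60.4 in iNP (log2 fold change 0.71, 95% interval 0.02 to 1.41, adjusted p = 0.086), and without both libraries numbered 2 it was called higher (1.01, adjusted p = 0.0063). *Pax8* was at 63.4, 114.8, 131 and 119.9 in E12.5 NP and 171, 143, 228 and 213 in iNP (log2 fold change 0.83 ± 0.24, adjusted p = 0.018), without overlap. The call of *Pax8* was lost without iNP replicate 3 (adjusted p = 0.053) or iNP replicate 4 (adjusted p = 0.050). The Notch ligand genes *Dll1* and *Jag1* were higher by 2.52 and 1.10 (adjusted p = 3.2e-05 and 7.6e-04), from 11.5 to 66.3 and from 91.9 to 198 normalised CPM as group means, with *Dll1* at 2.77 without E12.5 NP replicate 1. *Pou3f3*, a POU gene of the distal nephron, was at 6.31, 2.13, 2.85 and 2.65 in E12.5 NP and 23.8, 24.7, 25.0 and 25.7 in iNP (2.61, adjusted p = 2.1e-05, and 2.87 without E12.5 NP replicate 1). *Lef1* (1.54, adjusted p = 4.8e-05) and *Emx2* (1.47, adjusted p = 7.2e-05) were also higher, and *Osr2* was lower (-0.85, adjusted p = 0.0067). *Fgf8* was at 15.0, 23.2, 21.2 and 25.0 in E12.5 NP and 17.1, 22.2, 17.1 and 19.8 in iNP and was not called (adjusted p = 0.61). *Nphs1*, a gene of mature podocytes, was at 0.30 normalised CPM or below in all 8 libraries, and *Synpo* was at 0.954, 1.42, 3.55 and 2.93 in E12.5 NP and 14.6, 8.46, 11.7 and 11.7 in iNP (2.03, adjusted p = 2.6e-04).

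Stromal genes moved in both directions. *Foxd1*, the defining transcription factor of renal stroma, was at 54.2, 46.5, 45.8 and 52.1 in E12.5 NP and 8.86, 7.02, 6.38 and 6.05 in iNP (log2 fold change -2.66 ± 0.15, adjusted p = 8.6e-07), so that the E12.5 NP libraries held more of it than the iNP libraries. *Pdgfra*, whose product was used to gate these cells as low, was at 7.26, 2.13, 1.52 and 1.34 in E12.5 NP and 44.9, 17.7, 33.9 and 30.0 in iNP (log2 fold change 3.14 ± 0.41, adjusted p = 1.9e-04). *Ecm1* was at 13.3, 2.01, 3.67 and 2.55 in E12.5 NP and 129, 118, 137 and 111 in iNP (log2 fold change 4.59 ± 0.41, adjusted p = 1.8e-05) and *Col3a1*, a fibrillar collagen gene, at 78.6, 21.3, 26.4 and 23.2 in E12.5 NP and 397, 231, 301 and 264 in iNP (log2 fold change 3.16 ± 0.37, adjusted p = 1.0e-04). The iNP libraries were above every E12.5 NP library in these 3 genes, and E12.5 NP replicate 1 was the highest of its group in each, so that without it the log2 fold changes were 3.56, 5.08 and 3.58. Of 19 tested stromal genes, 8 were higher and 5 lower (42.1% and 26.3%, against 25.6% and 18.7% of all genes, median 0.36), and the summed level of the list was 1646 to 2524 in E12.5 NP and 2008 to 2589 in iNP libraries. *Tnc*, *Gas1* and *Ntn1* were lower (-2.08, -1.08 and -1.071), and *Cxcl12*, *Sfrp1* and *Tbx18* higher (1.16, 1.10 and 1.78, the last 2.08 without E12.5 NP replicate 1). *Dcn*, among the lower genes, was under 1 in every iNP library and passed the filter through E12.5 NP alone. *Tcf21* and *Aldh1a2* were not called, with 41.1 and 37.2, and 252 and 281 normalised CPM as means of E12.5 NP and iNP, and the log2 fold change of *Tcf21* was -0.05, or -0.35 without E12.5 NP replicate 1.

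Genes of the ureteric bud and of endothelium, cells that the sort was gated to leave out, were read in both groups, and their lists summed to less than the nephron progenitor list in every library. The sums cover 30 nephron progenitor, 15 ureteric bud and 14 endothelial genes, so that they do not give shares of cells. Single progenitor genes could lie below genes of the other lists in iNP, with *Cited1* at 1.66 to 4.26 against 21.9 to 33.0 for *Epcam* and 22.8 to 39.99 for *Kdr*. The ureteric bud genes summed to 41.4 to 126 normalised CPM in E12.5 NP, with replicate 1 highest and the other 3 between 41.4 and 53.3. The iNP libraries held 125 to 159, a range that E12.5 NP replicate 1 reached. 7 of 10 tested genes were higher, where 25.6% of all genes were, and none was lower in iNP, or 10 of 10 without E12.5 NP replicate 1 and 4 without both libraries numbered 2, and 3 were called in edgeR on the reads. *Epcam*, whose product marked cells to be left out of the sort, was at 16.9, 7.72, 6.38 and 6.61 in E12.5 NP and 21.9, 33.0, 25.8 and 24.2 in iNP (1.48, adjusted p = 0.0019, and 1.77 without E12.5 NP replicate 1). *Ret* was at 8.93, 2.13, 0.973 and 1.03 in E12.5 NP and 10.4, 6.43, 7.56 and 11.04 in iNP (1.53, adjusted p = 0.021), where E12.5 NP replicate 1 lay within the range of iNP. Without that library the call of *Ret* was kept (2.06, adjusted p = 1.6e-04). It was lost without E12.5 NP replicate 3 or 4 or iNP replicate 1 or 4 (adjusted p between 0.053 and 0.062), in edgeR on the reads (adjusted p = 0.11), after quantile normalisation (adjusted p = 0.061) and without both libraries numbered 2 (adjusted p = 0.053). *Gata3* and *Tfap2a* were higher by 1.91 and 2.48 (adjusted p = 0.0058 and 8.2e-05), with *Gata3* at an adjusted p of 0.054 in edgeR. Without E12.5 NP replicate 1 they were higher by 2.44 and 2.81. Of 14 endothelial genes 12 were higher (85.7%, against 25.6% of all genes) and *Ramp2* was lower (adjusted p = 0.042, and 0.054 without E12.5 NP replicate 1), and 1 of the list passed the filter through iNP alone. *Kdr*, the VEGF receptor gene, was at 2.49, 3.73, 4.51 and 8.10 in E12.5 NP and 39.99, 25.6, 31.5 and 22.8 in iNP (2.50, adjusted p = 8.5e-05), *Cldn5* at 2.68, 6.11, 4.69 and 6.71 in E12.5 NP and 23.0, 39.0, 20.9 and 13.9 in iNP (2.02, adjusted p = 6.3e-04). *Pecam1*, which encodes CD31, was at 0.893, 2.53, 2.76 and 5.25 in E12.5 NP and 3.48, 4.23, 2.49 and 2.75 in iNP (not called, 0.24, adjusted p = 0.56, and -0.06 without E12.5 NP replicate 1). The endothelial list summed to 68.2 to 101 in E12.5 NP and 133 to 235 in iNP libraries, and the part of such cells in the other results was not tested. 13 of 14 macrophage genes stayed under the filter, and 5 were at 0 in all iNP libraries. The embryonic globin gene *Hbb-y* was at 5.57, 52.99, 2.11 and 3.96 in E12.5 NP libraries, with replicate 2 far above the others, and had no read in any iNP library.

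Several genes of neural tissue and of other mesoderm were read in iNP and stood under 1 normalised CPM in E12.5 NP. Of 12 tested neural genes 10 were higher and 1 lower, and of 10 tested genes of paraxial and limb mesoderm and muscle 9 were higher and none was lower, where 25.6% of all genes were higher and 18.7% lower. 8 of the neural and 6 of the mesodermal genes passed the filter through iNP alone, being under 1 in every E12.5 NP library, so that these counts only describe the lists. *Sox1*, an early neural gene, was at 0.215, 0, 0.0226 and 0.0257 in E12.5 NP and 6.30, 5.57, 5.62 and 6.35 in iNP (2.71). *Stmn2*, a gene of neurons, was at 0.339, 0.392, 0.249 and 0.283 in E12.5 NP and 22.4, 26.8, 20.0 and 17.7 in iNP (4.10). *Dcx*, which encodes a microtubule-binding protein of young neurons, went the other way, at 44.2, 85.0, 53.1 and 92.1 in E12.5 NP and 8.19, 4.03, 7.21 and 6.78 in iNP (log2 fold change -3.17 ± 0.27, adjusted p = 1.3e-05), and was at 31.9 to 55.0 in E11.5 NP. *Pax3*, a paired box gene of dorsal neural tube and dermomyotome, was at 0.246, 0.0245, 0.136 and 0 in E12.5 NP and 20.0, 16.99, 17.3 and 15.6 in iNP (4.07). *Pax7* was at 0, 0, 0 and 0.0515 in E12.5 NP and 7.35, 6.23, 6.56 and 8.26 in iNP (2.99). *Myog*, a gene of differentiating muscle, was at 0.246, 0.0490, 0.0453 and 0.154 in E12.5 NP and 7.42, 10.7, 10.05 and 6.10 in iNP (3.07). *Twist1*, of early mesenchyme, was at 3.82, 0.760, 0.883 and 0.798 in E12.5 NP and 32.3, 32.4, 26.1 and 23.3 in iNP (3.66, adjusted p = 1.2e-05, and 4.01 without E12.5 NP replicate 1). The levels in iNP were modest beside *Six2*, between 5.57 and 36.5 normalised CPM for *Sox1*, *Sox2*, *Stmn2*, *Pax3*, *Pax7*, *Myog* and *Twist1* over the 4 libraries. Pluripotency genes were low in both groups and summed to 2.01 to 6.43 normalised CPM in E12.5 NP and 9.67 to 15.8 in iNP libraries. At least 3 reads were found in every E12.5 NP library for 3 of 10 genes, and in every iNP library for all 10. *Pou5f1*, under the filter, was at 0.185, 0, 0 and 0 in E12.5 NP and 2.43, 2.16, 1.64 and 0.819 in iNP. *Nanog*, also under it, was at 0.0616, 0, 0 and 0 in E12.5 NP and 0.528, 0.656, 0.556 and 0.592 in iNP. *Tfap2c* (1.83) and *Esrrb* (0.85), which also passed the filter through iNP alone, are described only.

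Imprinted genes, which are expressed from the allele of 1 parent, changed in both directions, and some of the largest falls in iNP were among them. Of 34 tested, 14 were higher and 5 lower (41.2% and 14.7%, against 25.6% and 18.7% of all genes), with a median of 0.24. *Peg13*, among the lower genes, was under 1 in every iNP library and passed the filter through E12.5 NP alone. *H19*, a long non-coding RNA expressed from the maternal allele, was at 3199.9, 2976, 3375 and 3345 normalised CPM in E12.5 NP and 29.5, 17.6, 23.0 and 30.3 in iNP (log2 fold change -6.98 ± 0.17, adjusted p = 1.1e-08). *Nnat*, which encodes neuronatin, was at 269, 304, 241 and 271 in E12.5 NP and 1.93, 2.36, 1.99 and 1.57 in iNP (log2 fold change -6.52 ± 0.14, adjusted p = 5.9e-09). *Peg13*, a non-coding RNA, was at 27.2, 31.7, 22.2 and 25.1 in E12.5 NP and 0.0703, 0.197, 0.176 and 0.0228 in iNP (log2 fold change -4.62 ± 0.14). *Plagl1*, a zinc finger gene, was at 116, 39.0, 72.5 and 69.0 in E12.5 NP and 0.528, 0.230, 1.03 and 0.956 in iNP (log2 fold change -5.41 ± 0.30, adjusted p = 8.8e-07). *Grb10*, a growth factor receptor adaptor gene, was at 1484, 2027, 1785 and 1974 in E12.5 NP and 154, 113, 181 and 172 in iNP (log2 fold change -3.56 ± 0.17, adjusted p = 3.4e-07). In these 5 genes the iNP libraries were far below the E12.5 NP libraries, with *Grb10* alone kept above 100 normalised CPM. *Igf2*, the growth factor gene next to *H19* and expressed from the paternal allele, was higher, at 1658, 2049, 1843 and 1852 in E12.5 NP and 7434, 6269, 8511 and 7866 in iNP (log2 fold change 2.02 ± 0.14, adjusted p = 3.7e-06), and took the highest level of the list in iNP. The genes of the *Dlk1*-*Meg3* domain were higher too, with *Dlk1* at 13.2, 8.21, 9.51 and 9.47 in E12.5 NP and 70.8, 86.8, 80.9 and 69.5 in iNP (2.83, adjusted p = 9.9e-07) and *Rian* at 15.8, 5.93, 11.6 and 8.03 in E12.5 NP and 88.2, 90.1, 101 and 96.2 in iNP (3.14, adjusted p = 7.1e-06), while *Meg3* lay close to the threshold (1.72, adjusted p = 0.049, and 2.33 without E12.5 NP replicate 1). *Peg10* and its neighbour *Sgce* rose together, by 3.04 and 2.89 (adjusted p = 1.3e-05 and 1.5e-06), and *Cdkn1c*, *Igf2r*, *Impact*, *Slc38a4* and *Snrpn* by 0.82, 1.42, 1.42, 1.59 and 0.93. *Peg3* (means 1084 and 1250.3 in E12.5 NP and iNP), *Mest* (1597 and 1383) and *Gnas* (1624 and 1852) were not called. Without E12.5 NP replicate 1 the counts were 14 higher and 6 lower.

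Genes of the sex chromosomes were read in both groups. *Kdm5d*, a Y-linked histone demethylase gene, was at 10.7, 16.8, 18.4 and 21.4 in E12.5 NP and 0.563, 0.0328, 0.469 and 0.341 in iNP (log2 fold change -3.70 ± 0.22). The other Y-linked genes tested were in the other direction or not called. *Eif2s3y* was at 11.6, 15.5, 16.4 and 18.4 in E12.5 NP and 32.5, 38.2, 29.8 and 31.8 in iNP (1.06, adjusted p = 5.7e-04), *Uty* at 5.17, 9.20, 9.10 and 9.80 in E12.5 NP and 15.5, 9.18, 16.9 and 18.0 in iNP (0.76, adjusted p = 0.03) and *Ddx3y* at 31.1, 52.6, 45.0 and 54.9 in E12.5 NP and 34.2, 24.6, 31.0 and 35.9 in iNP (-0.51, adjusted p = 0.06). The call of *Uty* was lost without E12.5 NP replicate 1 (adjusted p = 0.058) without iNP replicates 1, 3 or 4 and after quantile normalisation (adjusted p = 0.11), and that of *Ddx3y* was gained without E12.5 NP replicate 1 (-0.69, adjusted p = 0.0075).

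Genes induced by low oxygen were higher in iNP. Of 29 tested genes 18 were higher and 1 was lower (62.1% and 3.45%, against 25.6% and 18.7% of all genes), with a median of 0.83. Of these *Car9* passed the filter through iNP alone. Their summed level was 1283 to 1885 normalised CPM in E12.5 NP and 3231 to 3444 in iNP libraries. Hypoxia-inducible factors bind to the letters ACGTG or GCGTG of DNA. These are shown in capitals, on either strand and with overlapping matches joined, in the 250 bases before the start of 3 genes of the list that were higher (RefSeq, GRCm38.p6, 5′ to 3′ on the strand of the gene).
*Egln3*, chr12:54203875-54204124, minus strand: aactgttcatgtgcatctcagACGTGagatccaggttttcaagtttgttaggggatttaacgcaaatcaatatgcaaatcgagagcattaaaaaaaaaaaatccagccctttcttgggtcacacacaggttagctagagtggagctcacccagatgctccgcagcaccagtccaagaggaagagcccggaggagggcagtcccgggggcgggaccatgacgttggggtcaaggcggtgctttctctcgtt
*Bnip3*, chr7:138909507-138909756, minus strand: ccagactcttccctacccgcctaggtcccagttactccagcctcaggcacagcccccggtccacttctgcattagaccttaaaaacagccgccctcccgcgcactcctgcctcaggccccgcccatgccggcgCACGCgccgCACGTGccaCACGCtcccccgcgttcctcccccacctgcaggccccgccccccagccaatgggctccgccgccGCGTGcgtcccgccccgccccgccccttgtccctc
*Pdk1*, chr2:71872974-71873223, plus strand: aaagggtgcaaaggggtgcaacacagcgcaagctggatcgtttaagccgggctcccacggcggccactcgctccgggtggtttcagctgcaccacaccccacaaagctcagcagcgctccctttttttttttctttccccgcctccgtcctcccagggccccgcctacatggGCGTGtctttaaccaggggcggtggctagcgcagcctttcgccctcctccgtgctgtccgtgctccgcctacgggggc
The first match began at position -229 from the start in *Egln3*, at -117 in *Bnip3*, which had 5, and at -78 in *Pdk1*. These letters were found in 38.6% of all 32851 windows of this length, and in at least 1 window of 23 of the 24 genes of the list with an entry (95.8%), against 41.5% of all 27025 genes. Among the genes of the list called higher 14 of 15 had a match and among the others 9 of 9. *Bnip3l*, *Ndrg1*, *Bhlhe40*, *Lox* and *Angptl4* had no entry.

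*Egln3*, which encodes a prolyl hydroxylase that marks hypoxia-inducible factors for degradation and is itself their target, was at 2.34, 3.38, 2.08 and 3.40 normalised CPM in E12.5 NP and 78.4, 72.1, 68.9 and 70.7 in iNP (log2 fold change 4.29 ± 0.16, adjusted p = 9.4e-08). *Bnip3*, a mitophagy gene, was at 7.97, 20.8, 17.5 and 28.6 in E12.5 NP and 158, 195, 146 and 154 in iNP (log2 fold change 3.17 ± 0.31, adjusted p = 3.0e-05, and 2.83 without E12.5 NP replicate 1). *Pdk1*, whose product keeps pyruvate from oxidation in the mitochondria, was at 36.1, 45.7, 36.9 and 41.6 in E12.5 NP and 244, 233, 227 and 241 in iNP (log2 fold change 2.54 ± 0.12, adjusted p = 2.6e-07). *Car9*, a carbonic anhydrase gene, was at 0.400, 0.196, 0.611 and 0.617 in E12.5 NP and 11.3, 10.2, 10.9 and 10.5 in iNP (log2 fold change 3.02 ± 0.14). None of these 4 genes overlapped between the groups. *Ppp1r3c* (2.89, adjusted p = 1.2e-06) and *Adm* (2.18, adjusted p = 1.4e-05) were also higher. *Vegfa* was at 159.6, 228, 264 and 267 in E12.5 NP and 299.9, 244, 320.1 and 306 in iNP (log2 fold change 0.37, 95% interval -0.03 to 0.77, adjusted p = 0.12), *Bnip3l* and *Egln1* were not called, and *Mxi1* was lower (-0.77, adjusted p = 2.5e-04). Without E12.5 NP replicate 1 the counts were 18 higher and 2 lower.

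Glycolytic genes rose at nearly every step. Of 24 genes of glucose uptake, glycolysis and lactate 18 were higher and 1 was lower (median 1.14), where 25.6% and 18.7% of all genes were, and the sum was 6193 to 8060.4 in E12.5 NP and 16470.3 to 21028 in iNP libraries. Uptake began with *Slc2a3* (above) and *Slc2a1*, which encodes GLUT1 and was at 120.1, 147, 106 and 127 in E12.5 NP and 583, 670.2, 564 and 554 in iNP (log2 fold change 2.24 ± 0.13, adjusted p = 1.2e-06). Among the enzymes, *Aldoc* was at 2.12, 2.84, 2.51 and 2.34 in E12.5 NP and 48.4, 65.0, 49.6 and 50.8 in iNP (3.97, adjusted p = 9.4e-08) and *Pfkp*, a phosphofructokinase gene, at 8.49, 4.54, 8.06 and 12.8 in E12.5 NP and 80.3, 66.0, 85.9 and 99.0 in iNP (3.20, adjusted p = 8.1e-06). The main isoforms rose by less, *Gapdh* by 1.06, *Eno1* by 1.002, *Pkm* by 1.05, *Aldoa* by 1.82, *Pgk1* by 1.91 and *Ldha* by 1.56 (adjusted p at most 0.0005). Of the lactate transporters *Slc16a3* was higher (2.47, adjusted p = 3.2e-04, and 2.06 without E12.5 NP replicate 1) and *Slc16a1* lower (-0.59, adjusted p = 0.042). *Hk1*, *Eno2*, *Eno3*, *Pfkfb3* and *Pfkfb4* were not called. Pseudogenes of *Gapdh* and of other glycolytic genes are many, and how reads were shared with them was not given in the sources used here.

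Of 24 genes of cholesterol synthesis and uptake 21 were higher and none was lower (87.5% higher, against 25.6% of all genes, median 0.93). *Hmgcs1*, at the head of the pathway, was at 259.6, 111, 99.9 and 95.2 in E12.5 NP and 473, 477, 422 and 468 in iNP (log2 fold change 1.83 ± 0.28, adjusted p = 5.9e-04, and 2.16 without E12.5 NP replicate 1). *Lss*, which closes the sterol rings, was at 49.6, 46.0, 42.0 and 39.98 in E12.5 NP and 139, 96.0, 139 and 145 in iNP (log2 fold change 1.51 ± 0.16, adjusted p = 4.2e-05). *Dhcr7*, of the last step, was higher by 1.35 (adjusted p = 1.1e-04). *Tm7sf2* was not called (means 26.8 and 21.1 in E12.5 NP and iNP).

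Stress genes separated E12.5 NP replicate 1 from its group, and the counts of these lists rest on it. The integrated stress response genes, which ATF4 drives when amino acids are short, summed to 1864 normalised CPM in that library, to 3937 to 4384 in the other E12.5 NP libraries and to 1825 to 2031 in iNP. With all 8 libraries 7 of 23 were lower and 1 higher in iNP (30.4% and 4.35%, against 18.7% and 25.6% of all genes, median -0.52), and without E12.5 NP replicate 1 15 were lower and 1 higher (median -0.94). *Atf4* itself was lower in either case, at 554, 634, 638 and 519 in E12.5 NP and 149, 207, 152 and 150.4 in iNP (log2 fold change -1.83 ± 0.14, adjusted p = 7.3e-06, and -1.86 without that library). *Chac1*, a glutathione-degrading enzyme gene, was at 8.80, 112, 91.9 and 65.3 in E12.5 NP and 3.76, 4.66, 5.48 and 5.99 in iNP (log2 fold change -3.11 ± 0.65, adjusted p = 0.0035, and -3.91 without E12.5 NP replicate 1). *Mthfd2*, a mitochondrial folate enzyme gene, was at 77.3, 350.5, 286 and 308 in E12.5 NP and 42.5, 45.8, 36.4 and 42.4 in iNP (log2 fold change -2.38 ± 0.41, adjusted p = 0.0011, and -2.88 without E12.5 NP replicate 1). *Sesn2*, a sensor of leucine, was at 99.5, 520.0, 519 and 461 in E12.5 NP and 73.9, 62.3, 71.6 and 67.2 in iNP (log2 fold change -2.27 ± 0.46, adjusted p = 0.0032, and -2.85 without E12.5 NP replicate 1). *Trib3* and *Slc7a11* were called only without E12.5 NP replicate 1 (adjusted p = 0.084 and 0.2 with it, 6.1e-06 and 5.7e-05 without).

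Immediate early genes, which respond within minutes to signals, summed to 3846 in E12.5 NP replicate 1, to 1585 to 1699 in the other E12.5 NP libraries and to 1892 to 2113 in iNP. 6 of 25 were higher and 5 lower, or 8 and 7 without that library. These shares, 24.0% and 20.0%, are near the 25.6% and 18.7% of all genes. *Fos* was at 145, 43.6, 55.9 and 66.6 in E12.5 NP and 370.5, 283, 331 and 301 in iNP (log2 fold change 2.18 ± 0.31, adjusted p = 3.5e-04, and 2.53 without E12.5 NP replicate 1), above E12.5 NP in every iNP library, and *Ier3* at 3.85, 2.40, 2.20 and 4.27 in E12.5 NP and 26.2, 40.4, 21.7 and 24.8 in iNP (2.80, adjusted p = 1.1e-05). *Fosb* was at 193, 9.51, 19.7 and 24.1 in E12.5 NP and 176, 102, 161 and 158 in iNP (2.20, adjusted p = 0.033). Without E12.5 NP replicate 1 the change of *Fosb* was 3.06 (adjusted p = 8.9e-05). It was not called without E12.5 NP replicate 2, 3 or 4 or iNP replicate 1, 3 or 4 (adjusted p between 0.065 and 0.083), in edgeR (adjusted p = 0.25) or without both libraries numbered 2 (adjusted p = 0.083). *Atf3* was lower, at 116, 27.4, 40.7 and 25.7 in E12.5 NP and 3.83, 4.46, 3.08 and 3.16 in iNP (log2 fold change -3.26 ± 0.41, adjusted p = 1.5e-04, and -2.78 without E12.5 NP replicate 1). *Myc* was at 148, 158, 149 and 138 in E12.5 NP and 41.5, 42.4, 52.2 and 47.9 in iNP (-1.67, adjusted p = 4.4e-06). Among 14 heat shock chaperone genes 4 were lower and 1 higher (28.6% and 7.14%), or 5 and 4 without E12.5 NP replicate 1, which held 448 normalised CPM of *Hsph1* against 79.7 to 94.0 in iNP and 154 to 169 in the other E12.5 NP libraries. The log2 fold change of *Hsph1* was -1.25, and -0.88 without that library. *Hspa1a*, which was not called, passed the filter through E12.5 NP alone. *Bag3* was at 33.4, 13.7, 13.9 and 15.7 in E12.5 NP and 46.7, 36.4, 41.4 and 42.9 in iNP (1.181, adjusted p = 0.0047, and 1.47 without E12.5 NP replicate 1). Kidneys were used fresh or after cold storage, which of these applied to a sample is not given, and its part was not tested. Of 20 p53 target genes 6 were lower, among them *Zmat3* (-1.29, adjusted p = 1.4e-04), *Phlda3* (-1.066, adjusted p = 3.4e-04) and *Aen* (-0.96, adjusted p = 2.6e-04), and 2 higher, while *Mdm2* and *Cdkn1a* were not called. The 8 called of 20 are no more than the 44.3% of all genes.

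**Figure D4:**
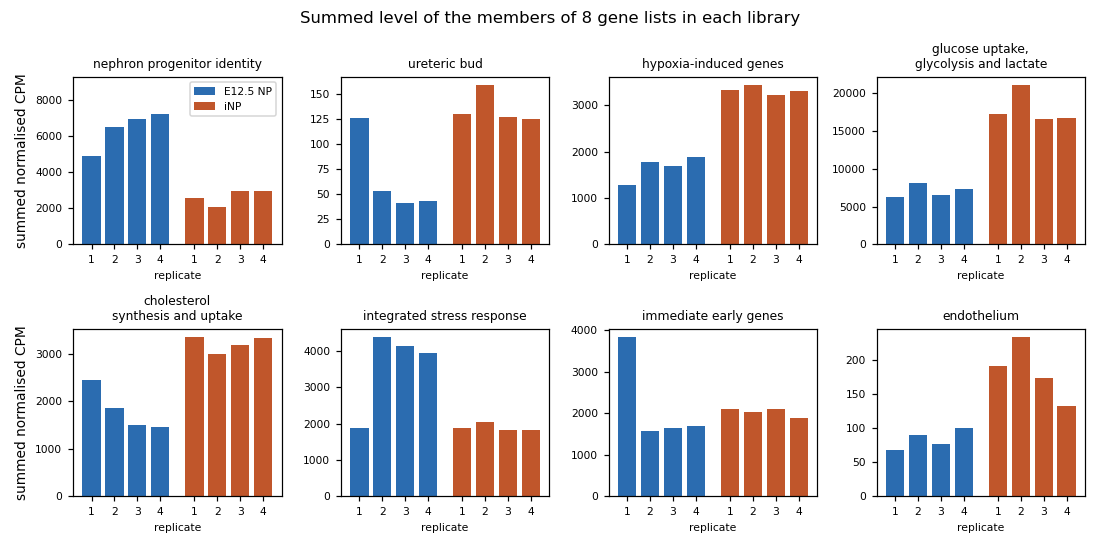
Summed normalised CPM of the members of 8 gene lists in each library, with E12.5 NP replicates 1 to 4 in blue and iNP replicates 1 to 4 in orange and each axis starting at 0. E12.5 NP replicate 1 departs from its group in ureteric bud, integrated stress response and immediate early genes, while all iNP libraries exceed all E12.5 NP libraries in hypoxia-induced, glycolytic, cholesterol and endothelial genes.

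Of 35 Hox genes tested 12 were lower and 9 higher. The share that was higher, 25.7%, is that of all genes (25.6%), and 34.3% were lower, against 18.7%. The 5′ genes *Hoxa11*, *Hoxc11*, *Hoxd10*, *Hoxd11* and *Hoxd12* were lower by -1.46, -1.11, -1.37, -1.33 and -1.57 (adjusted p at most 0.00071), with *Hoxd12* at -1.83 without E12.5 NP replicate 1. *Hoxa11* was at 106, 131, 122 and 126 in E12.5 NP and 40.2, 47.5, 39.8 and 46.9 in iNP, without overlap. At the 3′ end *Hoxb1* was at 4.40, 6.596, 7.02 and 5.30 in E12.5 NP and 15.4, 23.6, 16.5 and 17.9 in iNP (log2 fold change 1.502 ± 0.18, adjusted p = 1.3e-04), and in E11.5 NP *Hoxb1* was at 15.1 to 39.8, a range that holds the iNP values. *Hoxd13*, the last gene of its cluster, was also higher, from a mean of 1.11 to 4.30 (1.34, adjusted p = 1.6e-04). The number of Hox genes called fell from 21 to 12 or 13 when E12.5 NP replicate 3 or 4 or iNP replicate 1 or 3 was left out.

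Of 16 WNT target and feedback genes 10 were higher and 2 lower (62.5% and 12.5%, against 25.6% and 18.7% of all genes, median 0.96), and 2 of them passed the filter through iNP alone. *Sfrp2* was at 62.6, 119, 108 and 123 in E12.5 NP and 403, 443, 501 and 436 in iNP (2.14, adjusted p = 2.7e-05) and *Notum* at 5.201, 7.43, 8.01 and 8.18 in E12.5 NP and 25.3, 35.2, 28.1 and 25.8 in iNP (1.86, adjusted p = 2.3e-05), and *Sp5*, a direct target, was lower (-1.15, adjusted p = 0.003). *Axin2*, the common feedback gene, was at 63.5, 24.3, 36.3 and 39.9 in E12.5 NP and 43.5, 35.2, 44.4 and 44.3 in iNP (log2 fold change 0.10, 95% interval -0.45 to 0.66, adjusted p = 0.76). *Sp8* had no read in E12.5 NP and was at 2.53, 2.82, 1.61 and 1.84 in iNP libraries. Of 12 retinoic acid genes 7 were higher and 1 lower (58.3% and 8.33%), *Cyp26a1* having passed the filter through iNP alone. *Crabp1*, a binding protein for retinoic acid, was at 9.36, 8.34, 4.78 and 6.15 in E12.5 NP and 190.1, 257, 146 and 150.4 in iNP (log2 fold change 4.52 ± 0.23, adjusted p = 5.3e-07). The degrading enzyme genes *Cyp26b1* and *Cyp26a1* were at 1.82, 2.48, 2.40 and 4.04 in E12.5 NP and 27.0, 19.1, 27.5 and 22.2 in iNP (2.78, adjusted p = 4.5e-06) and at 0.308, 0.123, 0.249 and 0.0772 in E12.5 NP and 3.66, 6.36, 4.28 and 3.16 in iNP (2.14), and *Rdh10*, of its synthesis, was lower (-1.05, adjusted p = 0.0017). Of 12 Notch genes 6 were higher and 3 lower (50.0% and 25.0%), *Hes5* having passed the filter through iNP alone. *Nrarp* was at 4.65, 5.49, 2.97 and 5.15 in E12.5 NP and 30.7, 33.1, 28.3 and 25.9 in iNP (2.47, adjusted p = 4.5e-06), *Hes5* at 0.123, 0.172, 0.0679 and 0.206 in E12.5 NP and 3.41, 7.15, 3.78 and 3.69 in iNP (2.22) and *Hes1* at 69.2, 118, 151 and 133 in E12.5 NP and 28.8, 47.3, 33.0 and 28.4 in iNP (-1.72, adjusted p = 4.1e-04). *Heyl* and *Dtx1* were also lower (-0.97 and -0.54, *Heyl* -1.25 without E12.5 NP replicate 1), and *Hey2* was higher (1.41).

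Of 12 FGF feedback genes 1 was called, where 44.3% of all genes were. It was *Dusp6*, a phosphatase of ERK, at 95.8, 43.8, 35.0 and 48.9 in E12.5 NP and 112, 117, 117 and 118 in iNP (1.14, adjusted p = 0.0055, and 1.44 without E12.5 NP replicate 1), and 4 were called without E12.5 NP replicate 1 and 3 without iNP replicate 2. *Spry1*, *Etv4* and *Etv5* had means of 119.8 and 159, 165 and 159, and 137 and 111 in E12.5 NP and iNP, and *Spry1* was called higher without E12.5 NP replicate 1 (0.86, adjusted p = 6.2e-04). Of 13 BMP target genes 4 were called, all higher, and 7 without E12.5 NP replicate 1, but 2 when any of iNP replicates 1, 2 or 3 was left out. The 4 are 30.8% of the list, against 25.6% of all genes, and include *Msx1* (above), which passed the filter through iNP alone. *Id1* was at 126, 156, 151 and 173 in E12.5 NP and 135, 228, 146 and 135 in iNP (adjusted p = 0.81).

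Beside *Lin28a*, *Lin28b* was at 12.65, 21.0, 18.5 and 17.2 in E12.5 NP and 41.6, 35.3, 42.2 and 43.4 in iNP (log2 fold change 1.20 ± 0.17, adjusted p = 3.0e-04), while *Igf2bp1* was lower (-0.47, adjusted p = 0.033) and *Igf2bp2* and *Igf2bp3* were not called. The call of *Igf2bp1* was lost without E12.5 NP replicate 3 or 4 or iNP replicate 1, 2 or 4 (adjusted p between 0.051 and 0.093), after quantile normalisation (adjusted p = 0.12) and after upper-quartile scaling (adjusted p = 0.095). *Lin28a* was at 3.86 to 25.3 in E11.5 NP, between the 2 groups. *Hmga2*, a let-7 target, was at 525, 640.4, 560.1 and 593 in E12.5 NP and 1002, 545, 990.0 and 1023 in iNP (0.58, adjusted p = 0.043), with iNP replicate 2 within the range of E12.5 NP. Its call was lost without E12.5 NP replicate 1, 3 or 4 or iNP replicate 1, 3 or 4 (adjusted p between 0.080 and 0.11), under a block on the replicate number (adjusted p = 0.052) and with no filter (adjusted p = 0.065). Without both libraries numbered 2, which were low in long transcripts, it was 0.85 (adjusted p = 8.0e-05). Of 32 cell cycle genes 7 were higher and 8 lower, and these shares, 21.9% and 25.0%, are near the 25.6% and 18.7% of all genes. *Plk1*, a mitotic kinase gene (1.01, adjusted p = 6.1e-04), *Top2a*, a topoisomerase gene (0.89, adjusted p = 1.7e-04), and *Cdk1* (0.79, adjusted p = 0.0043) were among the higher genes. *Ccne2*, a cyclin gene (-1.16, adjusted p = 7.9e-05), *Cdc6* (-0.97, adjusted p = 0.0039) and *Cdt1* (-0.83, adjusted p = 6.3e-04), both of replication licensing, were among the lower genes. *Mki67*, a long transcript, was at 455, 6.45, 352 and 263 in E12.5 NP and 114, 63.5, 194 and 181 in iNP (-0.07, adjusted p = 0.97, and 0.52 without E12.5 NP replicate 1), lowest in the library numbered 2 of each group. E12.5 NP replicates 1, 3 and 4 lay above every iNP library in *Mki67* and replicate 2 below every one. Both log2 fold changes thus depend on replicate 2, which was low in long transcripts.

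Whether the difference between ES-derived and ex-fetu cells was that of nephron progenitors or was shared with stroma was tested with the interaction of source and cell type over 16 libraries. The difference in NP departed from that in SP in 3252 of 14067 genes (23.1%), being higher in 1917 and lower in 1335. In the E12.5 samples NP and SP of the same replicate number deviated together from their groups (r between 0.536 and 0.695 in 4 pairs), and in the ES-derived samples not every pair did (r between -0.302 and 0.309). With same-numbered NP and SP samples of one source as a block, 4656 genes were called. Of the 6237 genes called between iNP and E12.5 NP, 2042 were among the 3252 called without the block, and for the other 4195 no departure was called there. Departures may have been missed among the 4195, so that a gene with no call is not shown to change alike in stroma. *Nnat* changed by -6.52 in NP and -6.49 in SP (difference -0.04, adjusted p = 0.93) and *Gm10260* by -6.74 and -6.70 (-0.05, adjusted p = 0.91). The changes of both had the same sign in the 2 cell types and no difference was called. *Hprt*, which passed the filter through E12.5 NP alone, changed by -5.14 in NP and -4.71 in SP.

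Nephron progenitor genes mostly departed downward. For 18 genes of the list the change was called lower in NP than in SP, as for 9.49% of all genes, and for 5 higher, as for 13.6%. In 12 of the 18 the mean in E12.5 SP was under 10 normalised CPM. In 5 of the 18, *Cited1*, *Crym*, *Meox2*, *Spock2* and *Traf1*, it was too low for SP to fall as far as NP did on the log2 scale, so that the sign of the difference was fixed by the starting levels. *Six2* fell by 2.05 on the log2 scale in NP and rose by 1.95 in SP, from a mean of 3.27 to 13.4 normalised CPM (difference -4.01, standard error 0.45, adjusted p = 5.0e-06). *Eya1* and *Osr1* likewise were lower in iNP and higher in iSP (-1.63 and 2.50, -1.36 and 2.20; differences -4.13 and -3.57, adjusted p = 4.6e-06 and 2.2e-09). *Spock2* and *Cited1* stood at means of 11.5 and 2.97 normalised CPM in E12.5 SP and 14.6 and 2.298 in iSP (SP changes 0.35 and -0.24), and their differences of -4.14 and -3.80 are a description. *Sall1* and *Gdnf* fell further in SP than in NP (-3.51 and -3.40 in SP, differences 2.32 and 2.64, adjusted p = 8.4e-04 and 1.8e-06). *Wt1* and *Hoxd11* gave no called difference (-0.80 and -0.22, adjusted p = 0.065 and 0.31), but under the block that of *Wt1* was called (adjusted p = 0.0042).

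Of the genes raised in iNP, *Sparcl1* (difference 4.83, adjusted p = 1.9e-07), *Rgs5* (4.56, adjusted p = 2.6e-07) and *Crabp1* (3.49, adjusted p = 7.7e-08) rose further in NP than in SP. They started lower in NP, with means of 5.09, 3.04 and 7.15 normalised CPM in E12.5 NP against 68.0, 44.0 and 389 in E12.5 SP. *Crabp1* was still lower in iNP than in iSP (means 186 and 795), while *Sparcl1* and *Rgs5* were higher (233 and 109 against 103 and 57.5). *Sox2*, *Zic2* and *Zic1*, which passed the filter through iNP alone, changed by 4.85, 4.79 and 5.84 in NP and 1.04, 1.36 and 7.77 in SP. *Ecm1* rose in iNP and fell in iSP (-1.69), the largest positive difference among the stromal genes (6.28, adjusted p = 7.1e-08). *Foxd1* fell in both and further in SP (-5.39, difference 2.73, adjusted p = 1.8e-07), from a higher mean, 668 normalised CPM in E12.5 SP against 49.6 in E12.5 NP. *Plagl1* was near 0 in both ES-derived groups (means 0.685 in iNP and 0.201 in iSP), from 74.1 in E12.5 NP and 614 in E12.5 SP, so that NP could not fall by the -8.99 of SP. *Slc2a3* and *Egln3* rose in both and further in NP (differences 2.84 and 2.32, adjusted p = 9.5e-06 and 4.5e-05), while for *Bnip3* and *Pdk1* no difference was called (0.52 and -0.43, adjusted p = 0.54 and 0.12), and under the block both were (adjusted p = 0.028 and 0.023). *Slc2a3* and *Egln3* also started lower in NP, at means of 5.03 and 2.80 in E12.5 NP against 26.0 and 18.5 in E12.5 SP.

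**Figure D5:**
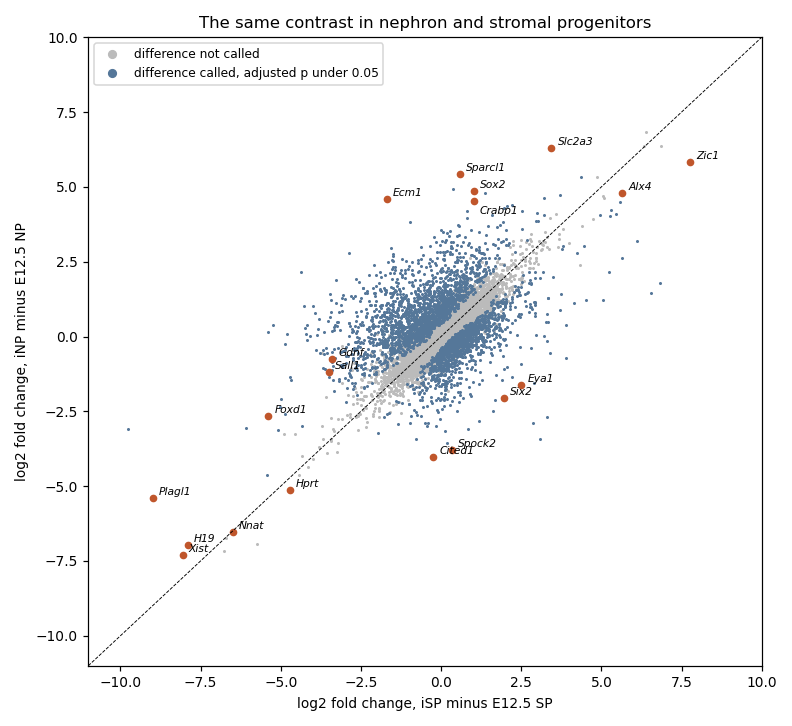
Log2 fold change of iNP minus E12.5 NP against that of iSP minus E12.5 SP for the 14067 genes tested, with the 3252 genes whose difference between the cell types was called in blue and a dashed line where both changes are equal. *Nnat* and *Hprt* lie near the line, *Sox2*, *Sparcl1* and *Ecm1* above it, and *Six2*, *Eya1*, *Cited1* and *Spock2* below it.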

How the data were processed

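The deposited values are, per the methods of the authors, read counts per library size divided by edgeR normalisation factors, a signal with no log scale. The authors trimmed reads of a stranded mRNA kit with Cutadapt, aligned them with STAR, and wrote the genome as GRCh38 although the gene identifiers are those of mouse. The counting program is not given in the sources used here. Whole reads were recovered from the steps of the low values (100% whole within 0.01 of a read) and gave the depths above.

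Genes that reached a value of 1 in at least 4 of the 8 libraries were fitted with limma 3.58.1 (trended prior, R 4.3.3) on log2(value + 1) over the iNP and E12.5 NP libraries, with Benjamini-Hochberg adjustment over all genes tested and a threshold of 0.05. The difference between NP and SP was the interaction term in a limma fit over 16 libraries. The alternatives were edgeR 4.0.16 (quasi-likelihood) on the reads, another pseudocount, filters and scalings, a replicate block, a test against a log2 change of 1 (treat), all 36 samples, E11.5 NP as comparator, and each replicate left out. Leaving out both libraries numbered 2 was chosen after seeing the data. Genes are named by rule, as the 12 largest called changes in each direction (no pseudogenes, no overlap between groups), the 4 largest called per list, kidney genes named by symbol and the 3 smallest p-values in each direction. Other genes of the lists named beside them were chosen after their values were seen. The members and lists were chosen with earlier results of these data known. Near-identical genes were found with BLAST 2.17.0 (identity of at least 90% over at least 80%). On simulated data over 14067 genes the test of iNP against E12.5 NP recovered 97.5% of changes of 1 and 99.5% of changes of 2 on the log2 scale. The test of the difference between NP and SP recovered 80% and 99%. Every simulated gene had the same relative spread, no library stood apart and far fewer genes changed than were called here, so that these rates may not hold for the data. P-values measure the spread between pools, and detection limits cover counting error only. Some genes of the lists are counted but not reported here by name. Replicate numbers were checked by correlating deviations from group means, and paired NP with SP in the E12.5 samples only, with no statement of pairing in the labels.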

Additional observations from a re-analysis of the deposited data

Results flagged for a closer look

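Of 283 groups of 4 values, a gene or a summed list in E12.5 NP or in iNP, 51 had a library set apart from the other 3. Chance gives about 1 in 20 only for independent, normally distributed values. These groups share the same libraries and some values lie near 0, so that this rate is no measure for the 51. The library set apart was E12.5 NP replicate 1 in 29 of the 51, iNP replicate 2 in 13, E12.5 NP replicate 2 in 6, iNP replicate 1 in 2 and iNP replicate 3 in 1. In normalised CPM, E12.5 NP replicate 1 was the high library of its group in the mesenchymal and ureteric genes *Pdgfra* (7.26), *Ecm1* (13.3), *Col3a1* (78.6), *Rgs5* (6.93), *Twist1* (3.82), *Tfap2a* (1.85), *Gata3* (6.59), *Ret* (8.93) and *Epcam* (16.9). It was also high in *Slc2a3* (9.11), *Zic1* (0.646), *Ndufa4l2* (1.26), *Sox1* (0.215) and *Tfap2c* (0.523). Among sterol, immediate early and chaperone genes it was high in *Hmgcs1* (259.6), *Atf3* (116), *Fosb* (193), *Hspa4l* (36.5), *Hsph1* (448), *Bag3* (33.4) and *Hsp90aa1* (1128). It was the low library in *Eya1* (165), *Wt1* (326), *Sesn2* (99.5), *Hey1* (65.9) and *Uty* (5.17). Its summed levels stood apart in the lists of ureteric bud genes (126), immediate early genes (3846) and heat shock chaperones (10867).

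iNP replicate 2, in which long transcripts were low, was the low library of its group in *Osr1* (34.4), *Itga8* (75.5), *Lhx1* (23.1), *Lss* (96.0) and *Hmga2* (545) and the high library in *Gm10036* (183), *Ppp1r3c* (17.4), *Aldoc* (65.0), *Atf4* (207) and *Hes5* (7.15). Its summed levels stood apart in the lists of ureteric bud genes (159), glycolytic genes (21028) and Lin28 timing genes (1575). E12.5 NP replicate 2 was the high library in *Gm10260* (288), *Alox15* (0.515) and *Hbb-y* (52.99), and stood apart in the summed lists of erythroid (79.8), neural (249.6) and cell cycle genes (6578). iNP replicate 1 was the low library in *Gm26619* (0.0352) and *Dusp6* (112) and iNP replicate 3 in *Hmgcs1* (422).

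In 26 of 39 genes, those with the largest changes, those with the smallest p-values and the kidney genes named by symbol, the log2 fold change of ES-derived against E12.5 cells differed between NP and SP by the interaction term in limma (23.1% of all genes). The change in NP, which chose most of these genes, is a term of that difference, and nothing is read from the count. The change was higher in NP than in SP in *Slc2a3* (2.84), *Sparcl1* (4.83), *Lin28a* (0.98), *Rgs5* (4.56), *Sox2* (3.82), *Zic2* (3.43), *Ndufa4l2* (1.03), *Msx1* (1.40), *H19* (0.92), *Plagl1* (3.59), *Peg13* (0.80), *Sall1* (2.32), *Gdnf* (2.64), *Pdgfra* (3.30), *Foxd1* (2.73) and *Alox15* (2.30). It was lower in NP in *Zic1* (-1.92), *Alx4* (-0.84), *Cited1* (-3.80), *Spock2* (-4.14), *Six2* (-4.01), *Eya1* (-4.13), *Osr1* (-3.57), *Pax2* (-3.0015), *Itga8* (-1.39) and *Pax8* (-1.90). The differences are on the log2 scale, and genes of the sort, *Itga8* and *Pdgfra*, are among them. *Zic1*, *Sox2*, *Zic2*, *Msx1*, *Alox15* and *Peg13* were under 1 in every library of E12.5 NP or of iNP and passed the filter through 1 group alone, so that their differences are a description, as are those of *Cited1*, *Spock2* and *Plagl1*, which started too low in 1 cell type to fall as in the other.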

How the results depend on the processing

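Against 6237 genes called, 3601 higher and 2636 lower in iNP, the counts called were 8092 in a fit of all 36 samples, 5983 after quantile normalisation, 6304 after upper-quartile scaling (4395 higher, 1909 lower), 7636 with no filter, 4515 with a minimum value of 5 (2364 higher), 6192 with a pseudocount of 0.1 and 6395 in edgeR on the reads (3505 higher, 2890 lower). Against a log2 change of 1 (treat), 786 genes were called, 598 higher and 188 lower, and 79 of the 271 list members called without it. With E11.5 NP as comparator 9102 were called, 4107 of them lower, and *Hoxb1* was at -0.50 (adjusted p = 0.11) in place of 1.502. With it *Hmgcs1* (0.31), *Bag3* (0.15), *Gata3* (1.06), *Hmga2* (0.24) and *Uty* (0.36) lost their call (adjusted p between 0.066 and 0.30), and *Lhx1* was called at 3.85 (adjusted p = 3.9e-04). Leaving out 1 replicate gave 5114 to 6818 genes called, 3070 to 3885 higher, 2040 to 2933 lower, 229 to 301 list members and 2829 to 3776 genes that differed between NP and SP.

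Of the 118 genes called among the 121 named, between 110 and 116 kept their call and direction without any 1 replicate, 118 with the other pseudocount, all but 3 after quantile normalisation, 116 after upper-quartile scaling, 113 in edgeR and 70 by treat. Ureteric bud genes called were 7, and 3 in edgeR. Neural genes called fell from 11 to 6 and genes of paraxial and limb mesoderm from 9 to 5 with a minimum value of 5. Of 11 tested Lin28 timing genes 4 were called (36.4%, against 44.3% of all genes). Their number fell to 2 without E12.5 NP replicate 4 or iNP replicates 1 or 4. The causes were not tested.

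Under a block on the replicate number 7186 genes passed (4033 higher, 3153 lower), 285 list members, and 4656 genes for the difference between NP and SP, and 116 of the 118 kept their call, with *Hmga2* (adjusted p = 0.052) and *Id3* (adjusted p = 0.064) the exceptions. Deviations of iNP and E12.5 NP samples with the same number correlated at r = -0.056 for number 1 and up to 0.418 for the others, and 6 of 8 samples correlated best with their own number. This is a hint of shared numbers from the data, but number 1 does not share it, so that the comparison is given without the block.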
